A study of Mus musculus with 10 samples.

Results

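Ductal macrophages of the mouse mammary gland were compared with the CD11b+ dendritic cells of the same organ, across all genes of a count table. The comparison used 4 of the 10 RNA-seq libraries of the series, namely both replicates of each of these populations, taken by their labels. The other 6 libraries came from stromal macrophages and from CD11b- dendritic cells with and without the integrin CD103, 2 libraries each. All 5 populations came fresh from the sorter, out of the mammary gland of C57BL/6 females that were adult and virgin, with no treatment or engineered allele named in the labels. The labels call the replicates biological, do not say whether a library held cells of a single mouse or of a pool, and give no sorting gate beyond the names CD11b and CD103, and p-values therefore measure the spread between these libraries.

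Ductal macrophages lie between the epithelial layers of the milk ducts and alveoli, where they survey the epithelium and take up its dying cells. Tissue macrophages depend on signals through the CSF1 receptor, digest what they engulf in lysosomes and mark dying cells with complement C1q. Dendritic cells depend instead on the FLT3 receptor, carry antigen to lymph nodes and prime T cells; the CD11b+ kind, often called cDC2, relies on the transcription factors IRF4 and KLF4 and presents antigen to CD4 T cells. Both cell kinds display peptides on MHC class II, and the question of the comparison was which genes set these antigen-presenting cells of the gland apart.

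Total counts were 5636092 and 6388106 in ductal macrophages and 15849123 and 5745085 in CD11b+ dendritic cells, within a range of 5636092 to 23093742 over the 10 libraries. Levels are given as CPM, the field's depth-scaled read count, computed on the normalized total of tested genes, replicate 1 before replicate 2, and a gene with 3 counts over both libraries of a population stood at 0.31 CPM in ductal macrophages and 0.149 CPM in CD11b+ cells, a floor that covers counting error only. Of the 27179 genes, 15681 had enough counts to be tested. A gene was called higher or lower where the adjusted p of edgeR's quasi-likelihood test was under 0.05, and fold changes are on the log2 scale, ductal macrophages over CD11b+ dendritic cells.

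The genes of the sorting markers matched the population names in part. Itgam, which encodes CD11b, was at 7.74 and 9.27 CPM in ductal macrophages and 701 and 556 CPM in CD11b+ dendritic cells, a log2 fold change of -6.2 (SE 0.3, adjusted p = 3.14e-06). Itgae, the CD103 gene, was at 0 and 0.757 against 1.1 and 0.359 CPM, near the floor in both. Itgax, which encodes CD11c and is often used to gate dendritic cells, was higher in ductal macrophages, at 847 and 610.2 against 134 and 77.6 CPM (2.78, SE 0.31, adjusted p = 0.000119). Adgre1, which encodes the macrophage antigen F4/80, was at 1045 and 828 against 331 and 253 CPM (1.68, SE 0.4, adjusted p = 0.0118), and its adjusted p was 0.085 without ductal replicate 1, 0.0558 without CD11b+ replicate 1 and 0.109 without CD11b+ replicate 2.

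Set beside the CD11b- dendritic cells of the series, with no test, the CD11b+ dendritic cells had lower means of Flt3 and Zbtb46 and a higher mean of Csf1r. Flt3, the receptor gene of the dendritic cell lineage, had a mean of 17.5 ± 0.956 CPM (SD, n = 2) in CD11b+ cells, 417 ± 146 in the CD103+ cells, 379 ± 52.5 in the CD103- cells and 1.7 ± 0.8 in ductal macrophages. Zbtb46, a transcription factor of conventional dendritic cells that was added here after its values were seen, was at 14.1 ± 7.27, 58.4 ± 3.56, 68.6 ± 10.2 and 1.74 ± 0.21 CPM in the same order. Csf1r ran the other way, at 558 ± 10.7 CPM in CD11b+ cells against 29.3 ± 18.8 and 14.9 ± 5.91 in the CD11b- cells and 3872 ± 629 in ductal macrophages. The label dendritic cell is kept here as deposited. Every difference below is one between bulk samples, in which fewer cells of a type and less RNA per cell cannot be told apart.

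Against CD11b+ dendritic cells, 1862 genes were higher in ductal macrophages (11.9% of those tested) and 1788 were lower (11.4%), while 12031 were not called. The median log2 fold change of all tested genes was -0.05 under the main scaling, which itself centres the bulk of genes, and -0.13 with upper quartile normalization, which gave 1741 higher and 2065 lower genes. Changes of over 4-fold were found for 748 higher and 845 lower genes, and changes of over 32-fold for 144 and 209. In each called gene, both libraries of the higher population lay above both of the lower, a pattern also seen in 31.2% of all tested genes in the higher direction and 34.3% in the lower. When ductal replicate 1 was left out, 946 genes were higher and 794 lower, and when ductal replicate 2 was left out, 1350 and 1035. Removing CD11b+ replicate 1 gave 1015 and 994, and removing CD11b+ replicate 2 gave 916 and 1006. Of the called genes, 761 higher and 651 lower ones kept their call and direction in each of these 4 fits.

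**Figure D1:**
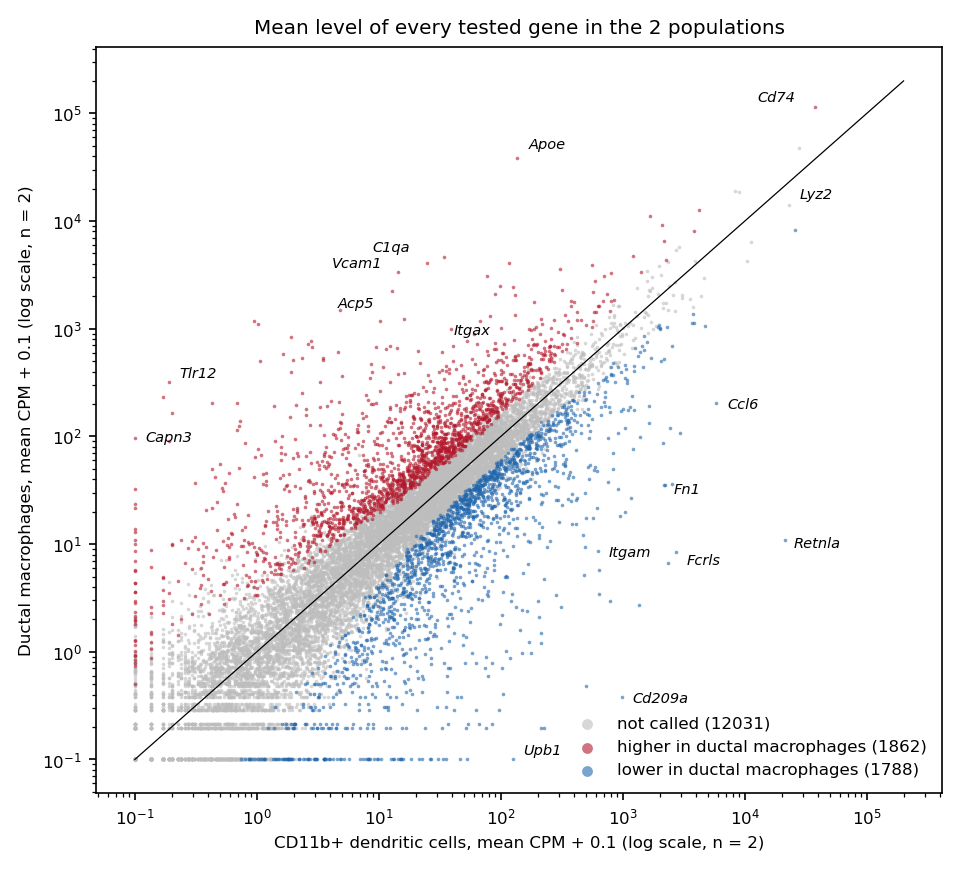
Mean CPM of each tested gene in CD11b+ dendritic cells (x axis) and ductal macrophages (y axis), both with 0.1 added and on log scales, with 2 libraries per population. Red points are the 1862 genes higher and blue points the 1788 genes lower in ductal macrophages, grey points are the 12031 genes not called, and the line marks equal levels.

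The genes of largest difference that were higher in ductal macrophages, among those reaching 30 CPM, included Capn3, Kcnj10 and Tlr12. Capn3 (Entrez gene 12335, chr2:120463593-120504919), which encodes the calcium-dependent protease calpain 3, was at 107 and 85.9 CPM in ductal macrophages and had 0 counts in CD11b+ cells, at least 647-fold higher against the floor (adjusted p = 2.92e-05). Kcnj10, a potassium channel gene best known from glia, was at 29.4 and 35.6 CPM against 0 counts, at least 218-fold higher (adjusted p = 0.000255). Tlr12, a Toll-like receptor for a protein of parasites, was at 335 and 307 CPM in ductal macrophages and had a single count in CD11b+ cells, a ratio of 6424 with a 95% counting interval from 1152 to 253826. Neither ductal library overlapped a CD11b+ library in any of these genes, which the rule that picked them required.

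Among the genes of largest difference were 4 of the MS4A family, which encode membrane proteins with 4 spans, 3 of them higher and 1 lower in ductal macrophages. Ms4a7 was at 1109.8 and 1120.1 CPM in ductal macrophages and 0.413 and 1.44 CPM in CD11b+ cells (10.53, SE 0.62, adjusted p = 3.14e-06), and Ms4a4a at 845 and 706 against 2.13 and 3.23 CPM (8.24). Ms4a14 had a single count in CD11b+ cells and 116 and 65.4 CPM in ductal macrophages, a ratio of 1781 (interval 319 to 70434). Ms4a8a ran the opposite way, with a single count in ductal macrophages and 78.7 and 89.8 CPM in CD11b+ cells, a ratio of 791 (interval 142 to 31281).

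Further genes of largest difference were Lair1, Lilra5, Cd4, Dnase1l3, H2-M2 and Adamdec1, all higher in ductal macrophages. Lair1, an inhibitory receptor for collagen, was at 875 and 816 against 3.09 and 0.539 CPM (8.63, SE 0.57, adjusted p = 4.12e-06). Lilra5, an activating receptor of the leukocyte immunoglobulin-like family, was at 203 and 264 CPM with 2 counts in CD11b+ cells, a ratio of 2377 (interval 657 to 19636). Cd4, the coreceptor known from helper T cells, was at 259 and 149 against 0.481 and 0.18 CPM (9.0, SE 0.53, adjusted p = 3.14e-06), while the T cell markers summed to 0.911 and 5.67 CPM in ductal macrophages and 10.3 and 7.72 CPM in CD11b+ cells, and none of the 6 was called. Dnase1l3, a secreted nuclease that degrades DNA of dying cells, was at 1513 and 869.5 against 1.51 and 0.18 CPM (10.13, adjusted p = 3.83e-06), and the MHC class I-like gene H2-M2 at 1474 and 1522 against 4.81 and 4.67 CPM (8.3, adjusted p = 5.20e-05). Adamdec1, a macrophage metalloprotease of the gut, was at 171 and 161 CPM with 3 counts in CD11b+ cells, a ratio of 1110 (interval 379 to 5387), and DESeq2's Wald test gave it an adjusted p of 0.0726.

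Among the genes lower in ductal macrophages, the difference in mean CPM between the populations is given first for Retnla, the gene of RELM-alpha, a small protein that macrophages secrete under IL-4. It stood at 6.61 and 14.9 CPM in ductal macrophages and 18695 and 24022 CPM in CD11b+ dendritic cells (-10.94, SE 0.72, adjusted p = 3.85e-06, at chr16:48842609-48844461). Upb1, an enzyme of pyrimidine breakdown, had 0 counts in ductal macrophages and 142 and 107 CPM in CD11b+ cells, at least 402-fold lower (adjusted p = 6.96e-05). Serpinb2, an inhibitor of plasminogen activators, and Bank1, an adaptor of B cell receptor signalling, also had 0 counts in ductal macrophages. Serpinb2, at 43.2 and 27.3 CPM in CD11b+ cells, was at least 114-fold lower, and Bank1, at 31 and 29.8 CPM, at least 98.1-fold lower. Trim30c was at least 108-fold lower, but its reads may be shared with other members of the Trim30 family, which are close copies.

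Cd209a, the mouse lectin gene nearest to human DC-SIGN, had 3 counts in ductal macrophages and 1198 and 763 CPM in CD11b+ cells, a ratio of 3477 (interval 1190 to 16860). Cd226 and Cd2, adhesion receptors known from T and natural killer cells, each had a single count in ductal macrophages; Cd226 was at 274 and 180.2 CPM and Cd2 at 192 and 234 CPM in CD11b+ cells. Aldh1a2, the enzyme that makes retinoic acid from retinal, was at 0 and 0.757 CPM in ductal macrophages against 516 and 479 CPM (-10.21, SE 0.77, adjusted p = 9.31e-06). Dok2, an adaptor that restrains tyrosine kinase signals, was at 1.82 and 3.4 against 1212 and 1510.5 CPM (-9.0, SE 0.49, adjusted p = 3.14e-06). In each of these genes both ductal libraries were at or close to 0.

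**Figure D2:**
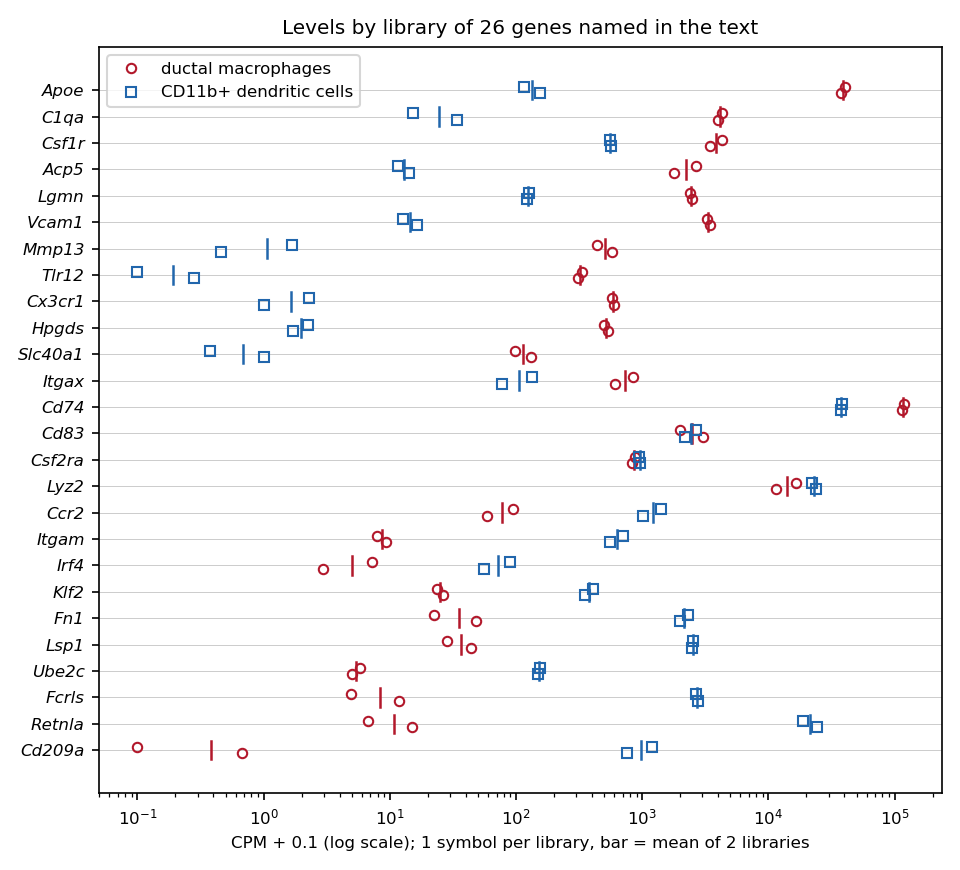
CPM of 26 genes in each library, with 0.1 added and on a log scale; red circles are the 2 ductal macrophage libraries, blue squares the 2 CD11b+ dendritic cell libraries and vertical bars the means. The symbols of the populations lie apart in 23 of the genes in a way that passed the test, whereas Cd83, Csf2ra and Lyz2 were not called.

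Genes that define macrophages were higher in ductal macrophages for 11 of the 14 listed and lower for none, with a median log2 fold change of 2.76. The complement C1q subunits led. C1qa was at 4254 and 3952 CPM in ductal macrophages against 15.1 and 34.1 CPM in CD11b+ cells (7.4, SE 0.59, adjusted p = 1.19e-05). C1qb was at 4152 and 4087 against 80.5 and 153 CPM (5.15, SE 0.4) and C1qc at 4753 and 4525 against 22.3 and 45.8 CPM (7.1, SE 0.53). Csf1r, the receptor for the growth factors CSF1 and IL-34, was at 4317 and 3427 against 551 and 566 CPM (2.79, SE 0.48, adjusted p = 0.0018). The list also held Trem2, Aif1, Fcgr1, Mertk, Adgre1 and Cd68 among its higher members, with log2 fold changes from 1.41 for Cd68 to 6.31 for Trem2.

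The 3 listed genes that did not pass were high in both populations. Lyz2, which encodes lysozyme, was at 16651 and 11467 CPM in ductal macrophages and 22099 and 24012 CPM in CD11b+ cells (-0.71, adjusted p = 0.289), Cd14 at 5020.5 and 6446 against 2998 and 2738 CPM (adjusted p = 0.106) and Tyrobp at 2267 and 2541 against 1272 and 1339 CPM (adjusted p = 0.0561). The count of 11 fell to 7 without CD11b+ replicate 1. In that fit Mertk (adjusted p = 0.0961), Adgre1 (0.0558) and Cd68 (0.0507) were among those lost. Mertk was also lost without ductal replicate 1 (0.0691), and Cd68 without CD11b+ replicate 2 (0.0662).

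A wider list of genes that separate macrophages from dendritic cells in many tissues gave 21 of 35 higher, 1 lower and a median of 1.47. These counts became 13 and 0 when a fold of at least 2 was tested. Itga9, an integrin chain, was at 271 and 239 against 2.2 and 2.33 CPM (6.82, SE 0.52). Csf3r, the receptor for the granulocyte growth factor G-CSF, was at 169 and 135 against 1.58 and 1.97 CPM (6.45, SE 0.4), and Selenop, the selenium carrier of plasma, at 3555 and 3664 against 351 and 254 CPM (3.58, SE 0.4). Adjusted p-values of the 3 were 9.49e-06, 3.21e-06 and 0.000111. Fcgr3, a low-affinity receptor for IgG on the same list, was not called, at 472 and 674 against 601 and 594 CPM (-0.06, adjusted p = 0.907).

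Core dendritic cell genes were lower in ductal macrophages for 11 of 21 tested and higher for 3, with a median of -1.86. Pstpip1, an adaptor at the actin skeleton, had 2 counts in ductal macrophages and 96.2 and 97.1 CPM in CD11b+ cells, a ratio of 467 (interval 129 to 3857). Kmo, an enzyme of tryptophan breakdown, had a single count in ductal macrophages and 20.7 and 12.6 CPM in CD11b+ cells, a ratio of 179 (interval 31.8 to 7069). Cd24a, a heavily glycosylated surface protein, was at 13.4 and 21.6 against 594 and 541 CPM (-5.01, SE 0.41, adjusted p = 1.39e-05), and Flt3 at 1.14 and 2.27 against 16.8 and 18.1 CPM (-3.32, SE 0.58, adjusted p = 0.00198). Dpp4 and Ciita, 2 further core genes, were not called, at 169.9 and 115 against 117 and 60 CPM for Dpp4 and 139 and 115 against 132 and 139 CPM for Ciita, the master regulator of MHC class II.

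Of 19 genes typical of the CD11b+ dendritic cell, 9 were lower in ductal macrophages and 2 higher (median -1.78). Itgam and Cd209a, given above, were joined by Irf4, the transcription factor of this lineage, at 7.06 and 2.84 against 89.2 and 55.5 CPM (-3.89, SE 0.68, adjusted p = 0.00205). Clec10a, a lectin for galactose sugars, was at 11.2 and 13.8 against 119.7 and 111 CPM (-3.2, SE 0.28), and S100a4, a calcium-binding protein, at 45.1 and 34.8 against 529 and 529 CPM (-3.73, SE 0.29). Il1r2, the decoy receptor for interleukin-1, went the other way, at 267 and 503 against 40.3 and 34.1 CPM (3.37, SE 0.53, adjusted p = 0.00103). Clec10a was not highest in CD11b+ cells, since stromal macrophages had a mean of 482 ± 143 CPM (SD, n = 2). Itgam, Cd209a and Irf4 had stromal means of 109, 186.5 and 31.4 CPM, below their CD11b+ means of 628, 981 and 72.3 CPM. The 2 higher members became 1 without ductal replicate 1 or either CD11b+ library.

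Monocyte genes were lower for 6 of 13 and higher for none (median -2.29, or -2.22 with the gene without ductal counts at its bound). Fn1, fibronectin, was at 22.1 and 47.9 CPM in ductal macrophages and 2305 and 2008 CPM in CD11b+ cells (-5.94, SE 0.65, adjusted p = 9.36e-05). Ccr2, the receptor by which monocytes leave the marrow, was at 94.1 and 59.2 against 1407 and 1014 CPM (-3.98, SE 0.43, adjusted p = 8.60e-05). F10, coagulation factor X, had a single count in ductal macrophages and 75.3 and 75.2 CPM in CD11b+ cells, a ratio of 728 (interval 131 to 28791). The CD11b+ libraries were thus the high ones in each of these genes, although Lyz2 and Napsa of the same list were not called. In a fit of the 4 libraries alone, 10 members were lower.

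Growth factor and cytokine receptors were mostly higher in ductal macrophages, 13 of 22 against 2 lower, with a median of 1.23. Tested against a fold of at least 2, 8 were higher and 2 lower. Both receptor chains for TGF-beta stood out. Tgfbr1 was at 716 and 581 CPM against 10.5 and 12.2 CPM (5.85, SE 0.44, adjusted p = 9.23e-06) and Tgfbr2 at 423 and 362 against 30.1 and 31.4 CPM (3.68, SE 0.3, adjusted p = 1.39e-05). Fgfr1, a receptor for fibroblast growth factors, was lower, at 2.73 and 6.62 against 226 and 227 CPM (-5.57, SE 0.42, adjusted p = 9.31e-06). The chains of the GM-CSF receptor were not called, with Csf2ra at 882 and 829.8 against 946 and 966 CPM and Csf2rb at 407 and 477 against 647 and 558 CPM.

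Macrophage transcription factors were higher for 6 of 22 and lower for 1, with a median of 0.03, close to that of all genes. Spic, known from red pulp macrophages that recycle iron, was at 158 and 77.2 against 4.61 and 4.49 CPM (4.69, SE 0.42, adjusted p = 2.61e-05). Nr1h3, the oxysterol receptor LXR-alpha, was at 93.6 and 32 against 1.99 and 1.8 CPM (5.03, SE 0.76, adjusted p = 0.000788), and Tfec, a relative of MITF, at 12.8 and 5.86 against 0.206 and 0.359 CPM (5.12, SE 0.78, adjusted p = 0.00167). Ahr, the aryl hydrocarbon receptor, was the lower member, at 41.9 and 37.3 against 159 and 93.3 CPM (-1.68, adjusted p = 0.00144). The number of lower members was 2 to 5 in several alternatives, among them 4 with DESeq2 and 5 in a fit of the 4 libraries alone. The 6 higher members became 4 when a fold of at least 2 was tested.

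Dendritic cell transcription factors were lower for 11 of 23 and higher for 2 (median -1.09). Cbfa2t3, a corepressor active in early progenitors, was at 3.42 and 3.03 against 71 and 84.4 CPM (-4.59, SE 0.28, adjusted p = 3.18e-06). Klf2 was at 23.5 and 26.1 against 405 and 349.7 CPM (-3.93, SE 0.36) and Batf3, which is needed for cDC1, the cross-presenting kind of dendritic cell, at 14.4 and 13.6 against 108 and 153 CPM (-3.22, SE 0.3). Irf8, the lineage factor of cDC1, was instead higher in ductal macrophages, at 306 and 183 against 19.9 and 15.3 CPM (3.79, SE 0.36, adjusted p = 3.42e-05). The list of cDC1 genes gave 5 of 11 higher and 1 lower. Cadm1, an adhesion molecule, was at 644 and 717 against 7.98 and 10.8 CPM (6.2, SE 0.49, adjusted p = 1.08e-05), and Clec9a, a receptor for exposed actin of dead cells, at 8.43 and 10.8 against 2.75 and 1.08 CPM (2.18, adjusted p = 0.00351). Xcr1, the chemokine receptor of cDC1, was at 7.74 and 5.11 against 7.63 and 2.69 CPM and not called. Clec9a and Xcr1 were both far higher in the CD11b- dendritic cells, with no test. In CD103+ and CD103- cells Clec9a had means of 232.5 ± 52.4 and 177 ± 24.4 CPM (SD, n = 2). Means of Xcr1 were 300 ± 110 and 242 ± 23.1 CPM in the same order.

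**Figure D3:**
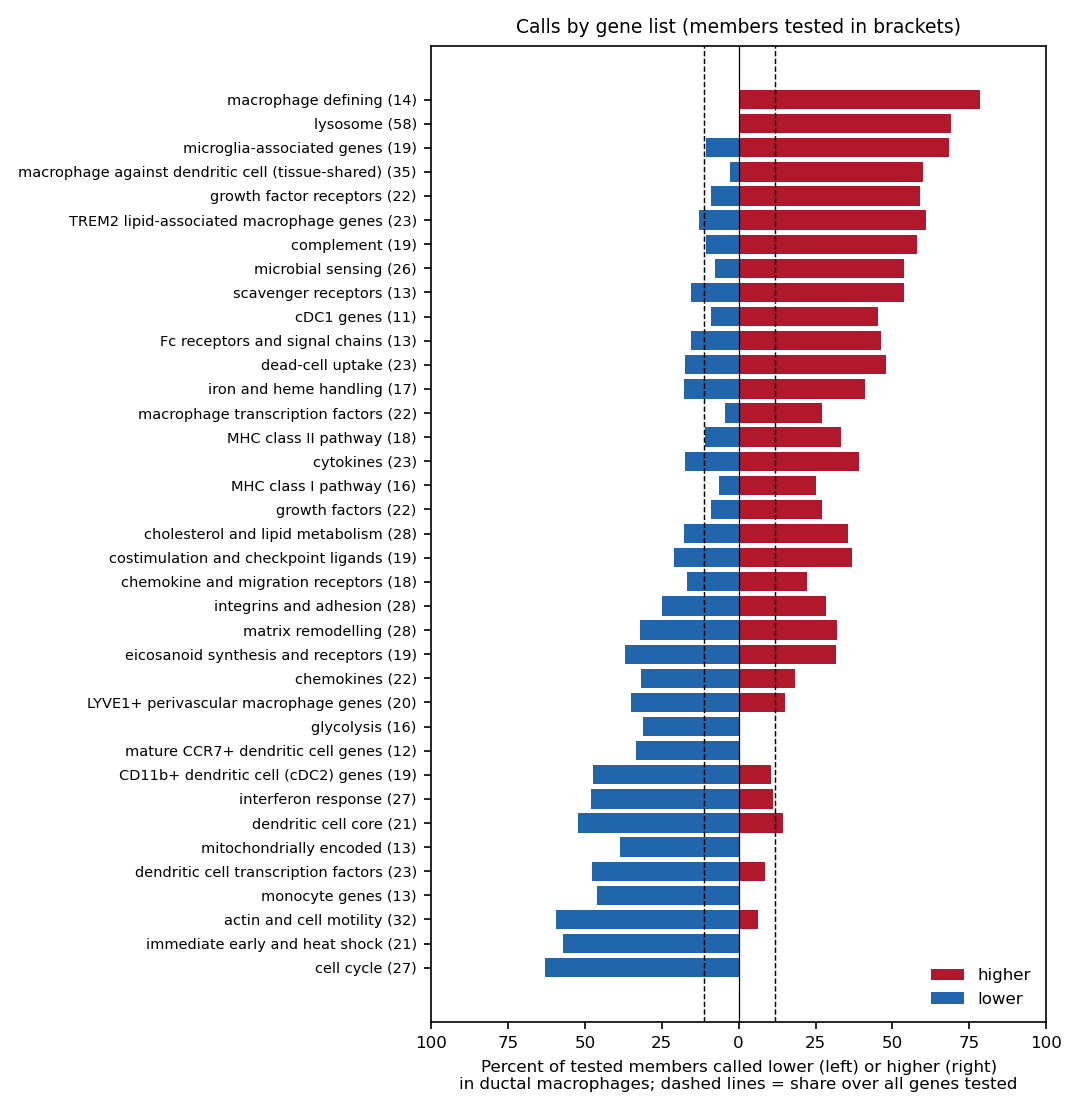
Share of the tested members of each of 37 gene lists called lower (blue, to the left) or higher (red, to the right) in ductal macrophages, with the number tested in brackets. Dashed lines mark the 11.4% lower and 11.9% higher of all genes tested, and lists are ordered by the difference of the shares, from the macrophage list at the top to the cell cycle list at the bottom.

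Of the lysosome genes, 40 of 58 were higher in ductal macrophages, 18 not called and 0 lower (median 1.51). At an unadjusted p under 0.05 the number lower was 2, and DESeq2 called 2. Acp5, the tartrate-resistant acid phosphatase known from osteoclasts, was at 2641 and 1796 CPM in ductal macrophages and 11.5 and 14 CPM in CD11b+ cells (7.45, SE 0.44, adjusted p = 3.14e-06). Among the proteases, Ctsf was at 100.7 and 108 against 5.16 and 5.21 CPM (4.33, SE 0.36) and legumain (Lgmn), which cleaves after asparagine, at 2377 and 2467 against 127 and 123 CPM (4.28, SE 0.28).

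Cd63, a membrane protein of late endosomes, was at 1143 and 1233 against 60 and 75 CPM (4.14, SE 0.3), and Ppt1, which removes fatty acids from proteins, at 1525 and 1142 against 131 and 129.6 CPM (3.36, SE 0.45). Ctsd, Laptm5 and Grn, at high levels in both populations, were not called, with Ctsd at 3948 and 2064 against 1603 and 1863 CPM and Grn at 1252 and 999 against 957 and 1112 CPM. The count of 40 fell to 24 without ductal replicate 1 and to 20 when a fold of at least 2 was tested.

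Many lysosome genes share the palindrome CACGTG, an E-box bound by the factors MITF, TFEB and TFE3, and the promoters were searched for it because the list moved together. RefSeq windows of GRCm38.p6 were matched for 11766 of the 15681 tested genes, and the 250 bases before each start were searched on both strands, which are the same for this motif. A match was present in 15 of 45 lysosome genes with a window (33.3%), in 9.52% of all genes, in 12.3% of genes higher in ductal macrophages (185 of 1510) and in 9.86% of genes lower (133 of 1349). Within the list, 12 of 32 higher members and 3 of 13 members not called held a match. These shares are descriptions with no test, and a match is not evidence of binding.

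The last 100 bases before the start are shown for the 6 higher lysosome genes with a single window and a match in this stretch, chosen for the match after the search, with CACGTG in capitals. They are Ctsf at chr19:4855065-4855164 (plus strand), the beta-galactosidase gene Glb1 at chr9:114400978-114401077 (plus), the heparan sulfate enzyme genes Naglu at chr11:101069994-101070093 (plus) and Sgsh at chr11:119355511-119355610 (minus), the membrane glycoprotein gene Lamp1 at chr8:13159061-13159160 (plus) and the calcium channel gene Mcoln1 at chr8:3500419-3500518 (plus), all in RefSeq's GRCm38.p6, 5′ to 3′ on the gene's strand.
Ctsf: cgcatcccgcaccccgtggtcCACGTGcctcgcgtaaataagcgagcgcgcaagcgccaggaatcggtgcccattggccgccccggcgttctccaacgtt
Glb1: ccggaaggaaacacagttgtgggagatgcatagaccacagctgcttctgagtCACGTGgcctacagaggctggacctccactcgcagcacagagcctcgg
Naglu: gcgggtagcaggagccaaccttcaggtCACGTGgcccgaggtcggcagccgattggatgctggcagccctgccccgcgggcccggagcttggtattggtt
Sgsh: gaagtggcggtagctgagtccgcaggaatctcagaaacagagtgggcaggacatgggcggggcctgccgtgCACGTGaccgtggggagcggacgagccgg
Lamp1: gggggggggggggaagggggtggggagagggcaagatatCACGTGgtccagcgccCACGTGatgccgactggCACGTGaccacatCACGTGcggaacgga
Mcoln1: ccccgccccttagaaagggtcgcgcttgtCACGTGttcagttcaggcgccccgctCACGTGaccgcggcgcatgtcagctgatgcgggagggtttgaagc
The Lamp1 stretch held 4 matches and the Mcoln1 stretch 2, whereas the others held 1 each. The first base of the match lay 79 bases before the start in Ctsf, 48 in Glb1, 73 in Naglu and 29 in Sgsh. Their log2 fold changes were 4.33, 2.05, 1.55 and 1.72 in that order, with 1.5 for Lamp1 and 1.12 for Mcoln1. Whether the number of matches goes with the size of the difference was not tested. Acp5 had a larger difference (7.45) than each of these 6 genes, and its window held no match. Of other higher members, Cd63 (4.14) had a window without a match, whereas Lgmn (4.28) had one with a match.

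**Figure D4:**
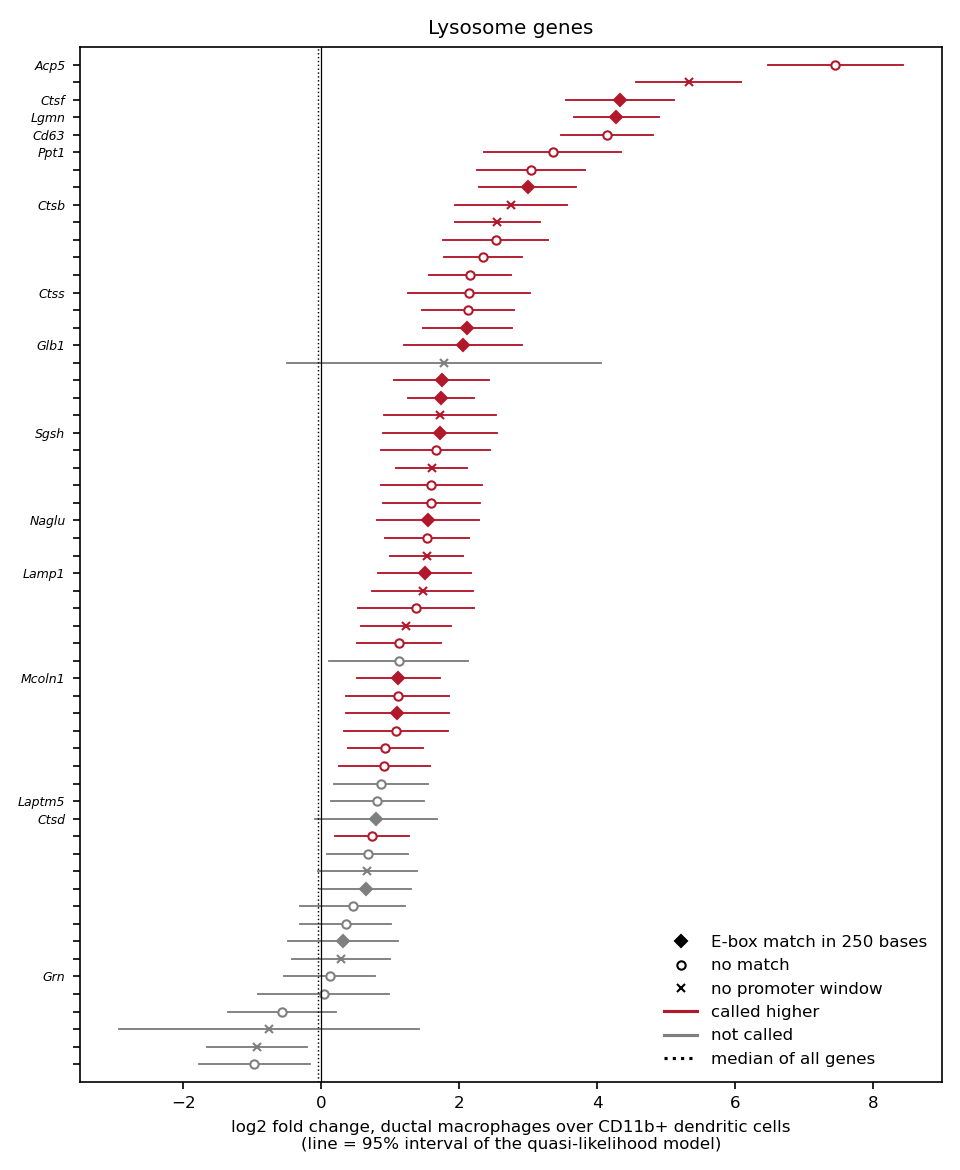
Log2 fold change of each of the 58 tested lysosome genes, ductal macrophages over CD11b+ dendritic cells, with the 95% interval of the model as a line and names for the genes described in the text. Red marks the 40 genes called higher and grey the 18 not called, filled diamonds are genes with an E-box match in the 250 bases before the start, open circles genes without a match, crosses genes without a promoter window, and the dotted line is the median of all genes at -0.05.

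Genes for the uptake of dying cells were higher for 11 of 23 and lower for 4 (median 0.41). Stab1, a receptor for phosphatidylserine and oxidised lipoprotein, was at 592 and 471 CPM in ductal macrophages and 2.06 and 4.67 CPM in CD11b+ cells (7.42, SE 0.64, adjusted p = 1.96e-05). Itgb5, an integrin chain that pairs with alpha V to bind the bridging protein MFG-E8, was at 1351 and 984 against 7.7 and 12.6 CPM (6.88, SE 0.5, adjusted p = 8.37e-06), and the receptor tyrosine kinase Axl at 2341 and 1869 against 94.3 and 85.3 CPM (4.55, SE 0.4, adjusted p = 2.09e-05). The bridging protein gene Mfge8 itself was at 47.2 and 93.6 against 143 and 290.5 CPM and was not called (adjusted p = 0.0751). Without ductal replicate 1 the 4 lower members became 2.

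Scavenger receptor genes were higher for 7 of 13 and lower for 2. Msr1, the class A receptor for modified lipoprotein, was at 195 and 181 against 3.37 and 3.05 CPM (5.85, SE 0.37, adjusted p = 3.48e-06). Cd163, the receptor for haemoglobin bound to haptoglobin, was lower, at 0.228 and 0.757 against 91.7 and 65.3 CPM (-7.24, SE 0.43, adjusted p = 3.14e-06), as was the mannose receptor gene Mrc1, at 44 and 60 against 681 and 495 CPM (-3.5, SE 0.35, adjusted p = 4.94e-05). Cd36 was not called, at 520.3 and 706 against 499 and 425 CPM (adjusted p = 0.396).

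Of 20 genes listed for macrophages along vessels that carry LYVE1, 7 were lower in ductal macrophages and 3 higher (median -1.22). The lower members were Mrc1, Cd163, Retnla, Cd209b, Cd209d, F13a1 and Ccl24. F13a1, the A chain of coagulation factor XIII, was at 2.51 and 3.22 against 883 and 676 CPM (-8.08, SE 0.75, adjusted p = 3.26e-05), and Cd209d at 0.228 and 0.757 against 39.4 and 33.2 CPM (-6.12, SE 0.49, adjusted p = 1.15e-05). The Cd209 genes are close copies of one another, so their counts are uncertain. Lyve1 itself was near the floor in both populations.

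Genes of lipid-associated TREM2 macrophages were higher for 14 of 23 and lower for 3 (median 2.24). Apoe, the main apolipoprotein of macrophages (chr7:19696244-19701310), was at 40236 and 37329.7 CPM in ductal macrophages and 115 and 154 CPM in CD11b+ cells (8.17, SE 0.67, adjusted p = 1.39e-05). Trem2, the lipid-sensing receptor, was at 37.6 and 64.5 against 0.688 and 0.539 CPM (6.31, SE 0.68) and Apoc2, the cofactor of lipoprotein lipase, at 66.5 and 63.9 against 1.99 and 2.15 CPM (4.98, SE 0.59). Plin2, which coats lipid droplets, and Lgals3 were not called, at 1479.9 and 1201 against 1665 and 1578 CPM and at 2420.0 and 1653 against 3100.4 and 3064 CPM. The counts were 9 higher and 1 lower without ductal replicate 1, and 1 lower without CD11b+ replicate 1.

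Cholesterol and lipid genes were higher for 10 of 28 and lower for 5. Higher members included Abca1, the pump that loads cholesterol onto apolipoprotein A-I, at 756 and 675 against 82 and 46.1 CPM (3.47, SE 0.44, adjusted p = 0.000246), and Mylip, which degrades the LDL receptor, at 102.96 and 82.7 against 14.4 and 9.16 CPM (2.95, SE 0.34, adjusted p = 0.000137). Pltp, the phospholipid transfer protein, was lower at 116 and 81.3 against 1340.4 and 1442 CPM (-3.82, SE 0.52). Srebf1, Insig1 and Abcg1 were not called. Leaving out either stromal library, or fitting the 4 libraries alone, raised the 5 lower members to 8.

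Genes used to mark brain microglia were higher for 13 of 19 and lower for 2, with a median of 4.13. Cx3cr1, the fractalkine receptor, was at 578 and 592 CPM in ductal macrophages and 2.2 and 0.898 CPM in CD11b+ cells (8.4, SE 0.9, adjusted p = 8.03e-05). Siglech, a receptor for sialic acids, was at 219 and 189.9 against 0.275 and 0.898 CPM (8.74, SE 0.67), Olfml3 at 756 and 686 against 1.86 and 3.23 CPM (8.23, SE 0.83) and Tmem119 at 280.0 and 354 against 2.41 and 3.95 CPM (6.71, SE 0.4). Fcrls, an Fc receptor-like gene that is also used to mark microglia, ran the other way, at 4.78 and 11.7 against 2658 and 2769 CPM (-8.34, SE 0.87, adjusted p = 7.12e-05). Siglech is also a marker of plasmacytoid dendritic cells; the 5 markers of that cell type summed to 233 and 226 CPM in ductal macrophages and 44.5 and 99.5 CPM in CD11b+ cells, with Siglech at 219 and 189.9 CPM of the ductal sums, Ly6d not called (adjusted p = 0.0604) and Klk1 at 0 in ductal macrophages. Their part in the result was not tested. The 2 lower members became 1 without each of the 4 compared libraries, when Crybb1 lost its call.

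Complement genes were higher for 11 of 19 and lower for 2 (median 2.78, or 2.49 with genes without counts in a population at their bound). Besides C1q, both receptors for the fragment C5a were higher, with C5ar1 at 621 and 774 against 49.4 and 31.4 CPM (4.1, SE 0.48, adjusted p = 0.000141) and C5ar2 at 10 and 11.3 against 0.206 and 0.18 CPM (5.7, SE 0.79, adjusted p = 0.000438). Itgam and Itgax, the alpha chains of complement receptors 3 and 4, moved in opposite directions, as given above. The 2 lower members were 4 with DESeq2 and without a filter on low counts.

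Fc receptor genes were higher for 6 of 13 and lower for 2. Fcgr1, the high-affinity receptor for IgG, was at 103.4 and 152 against 2.54 and 2.69 CPM (5.61, SE 0.49, adjusted p = 2.01e-05), and the activating Fcgr4 at 115 and 195 against 5.5 and 10.1 CPM (4.36, SE 0.47, adjusted p = 8.03e-05). Fcgr2b, the inhibitory receptor, was lower at 131 and 157 against 524 and 587 CPM (-1.95, SE 0.33, adjusted p = 0.00177). The signal chain gene Fcer1g was not called, at 1063 and 1497 against 1391 and 1566 CPM (-0.21, adjusted p = 0.699).

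MHC class II genes were abundant in both populations, and of the 18 genes of the pathway 6 were higher in ductal macrophages, 2 lower and 10 not called (median 0.91). The peptide-binding chains did not pass the test. H2-Ab1 was at 48953 and 45948 CPM in ductal macrophages and 26219 and 29276 CPM in CD11b+ cells (0.77, adjusted p = 0.252), H2-Aa at 19209 and 17927 against 9244 and 8544 CPM (1.06, adjusted p = 0.0746) and H2-Eb1 at 19569.5 and 18409 against 8233 and 8331 CPM (1.2, adjusted p = 0.0516). Their ductal values lay above the CD11b+ values in every library. In a fit of the 4 libraries alone their adjusted p-values were 0.0117, 0.00222 and 0.00106, and the higher members of the pathway were 10. A test against a fold of at least 2 left 3 higher members and 1 lower. DESeq2 also called H2-Aa (0.00445) and H2-Eb1 (0.00161). Ciita was not called, at 139 and 115 against 132 and 139 CPM.

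Processing genes of the class II pathway differed in either direction. Cd74, the invariant chain, was at 117842 and 113571 against 38009 and 37643 CPM (1.61, SE 0.48, adjusted p = 0.0329), but was lost without any of the 4 compared libraries, with adjusted p-values of 0.12 and 0.0889 without ductal replicates 1 and 2 and 0.142 and 0.15 without CD11b+ replicates 1 and 2. Ctss, cathepsin S, which trims the invariant chain, was at 9206 and 9269 against 2195 and 1989 CPM (2.14, SE 0.4, adjusted p = 0.00307). H2-DMb2, a chain of the peptide-exchange molecule H2-M, was lower at 43.7 and 38.8 against 352 and 358 CPM (-3.11, SE 0.24, adjusted p = 9.33e-06), and H2-Oa, a chain of its inhibitor H2-O, was higher at 122 and 126 against 7.43 and 8.8 CPM (3.95, SE 0.56, adjusted p = 0.000489). H2-DMb1, a close copy of H2-DMb2, was at 797 and 991 against 1052 and 1055 CPM and not called, and reads of the copies may be split between them.

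Besides legumain, the members of the class II pathway not yet named were Rfxap (1.43, adjusted p = 0.00272) and Ifi30 (1.05, adjusted p = 0.0163), both higher, H2-DMa, lower at -1.14 (adjusted p = 0.0495), and H2-Eb2, Rfx5, H2-Ob, Rfxank and Marchf1, which were not called. Ifi30, a reductase that opens disulfide bonds of antigens, lost its call without ductal replicate 1 (0.168) and without CD11b+ replicates 1 (0.0823) and 2 (0.113). H2-DMa lost its call without each of the 4 compared libraries, with adjusted p-values from 0.103 without CD11b+ replicate 1 to 0.249 without ductal replicate 1, and without CD103- replicates 1 (0.0566) and 2 (0.0576).

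MHC class I genes were higher for 4 of 16 and lower for 1, and none of these 5 calls held in every fit that left out a library. Tapbp, tapasin, which loads peptides onto class I, was at 1137 and 882 against 366 and 391 CPM (1.42, SE 0.32, adjusted p = 0.00821), and the heavy chain gene H2-D1, with close copies in the genome, at 3237 and 2718 against 4312 and 4913 CPM, not called. The count of 4 fell to 0 without ductal replicate 1 or CD11b+ replicate 2 and to 1 without CD11b+ replicate 1.

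Costimulatory and checkpoint genes were higher for 7 of 19 and lower for 4. Havcr2, the inhibitory receptor TIM-3, was at 1199 and 1269 CPM in ductal macrophages and 20.8 and 11 CPM in CD11b+ cells (6.25, SE 0.39, adjusted p = 3.71e-06). Hvcn1, a proton channel of phagosomes placed on this list, was at 647 and 559.5 against 5.5 and 3.59 CPM (7.0, SE 0.39, adjusted p = 3.14e-06). Cd86, a ligand of CD28 on T cells, was at 1125 and 1307 against 325 and 218 CPM (2.16, SE 0.35, adjusted p = 0.0012), whereas Cd83, a marker of dendritic cell maturation, was not called, at 1981 and 3018 against 2642 and 2181 CPM (0.05, adjusted p = 0.949). Cd200r1, the inhibitory receptor for CD200, was lower at 1.14 and 1.13 against 198 and 142 CPM (-7.21, SE 0.5, adjusted p = 5.07e-06). The 4 lower members became 1 without CD11b+ replicate 1 and 2 without any other of the compared libraries.

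Chemokine genes were lower for 7 of 22 and higher for 4, with Ccl24, which draws eosinophils, at 0.228 and 0 against 40.4 and 66.1 CPM (-8.89, adjusted p = 3.18e-05). Ccl2, which draws CCR2+ monocytes, was at 15.5 and 20.4 CPM in ductal macrophages and 948 and 949 CPM in CD11b+ cells (-5.72, SE 0.37, adjusted p = 3.83e-06). Ccl7 was at 8.66 and 21.8 against 408 and 414 CPM (-4.74, SE 0.44), Ccl6 at 158 and 251 against 6066 and 5648 CPM (-4.84, SE 0.43) and Ccl9 at 102 and 136 against 2830.0 and 2030.0 CPM (-4.35, SE 0.34). Cxcl16, a membrane-bound chemokine and scavenger receptor, was higher at 2245 and 1875 against 150.4 and 110.2 CPM (3.98, SE 0.36, adjusted p = 2.80e-05). The neutrophil chemokine gene Cxcl2 was not called, at 1922 and 2304 against 2113 and 1801 CPM (0.11, adjusted p = 0.829). The 4 higher members became 2 without ductal replicate 2 or CD11b+ replicate 1.

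Receptors for migration were called in 7 of 18 cases, 4 higher and 3 lower. Gpr183, a receptor for oxysterols that positions cells in lymphoid tissue, was at 251 and 234 against 9.7 and 5.92 CPM (4.92, SE 0.3, adjusted p = 3.18e-06), next to Cx3cr1 and opposite to Ccr2. Ccr7, by which dendritic cells reach lymph nodes, was not called, at 93.6 and 70.7 against 147 and 92.8 CPM (adjusted p = 0.295). The calls became 2 higher and 1 lower without either ductal library or CD11b+ replicate 2, and 3 higher and 1 lower without CD11b+ replicate 1. Of the list of mature CCR7+ dendritic cells, 4 of 12 were lower and 0 higher, with Traf1, an adaptor of TNF receptors, at 68.8 and 53 against 266 and 176 CPM (-1.86, SE 0.32, adjusted p = 0.00187), and the count was 2 without either ductal library and 7 in a fit of the 4 libraries alone or without a filter on low counts.

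Cytokine genes were higher for 9 of 23 and lower for 4 (median 1.32). Tnfsf13b, the B cell survival factor BAFF, was at 85 and 85.1 against 5.23 and 8.08 CPM (3.7, SE 0.37, adjusted p = 5.22e-05). Il1a was at 868 and 615 against 128 and 49.4 CPM (3.06, SE 0.8, adjusted p = 0.0185), with adjusted p-values of 0.0928 without ductal replicate 1 and 0.0508 and 0.157 without CD11b+ replicates 1 and 2. Il15, a growth factor of natural killer and memory T cells, was lower at 3.87 and 3.59 against 31.7 and 19.9 CPM (-2.8, SE 0.48, adjusted p = 0.00167). Tgfb1 was at 292 and 349.7 against 215 and 216 CPM and was not called (adjusted p = 0.109). Of the 4 lower members, 1 was left when ductal replicate 1 was removed and 2 when ductal replicate 2 or CD11b+ replicate 1 was.

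Growth factor genes were higher for 6 of 22 and lower for 2. Pdgfa, a ligand for fibroblasts, was at 115 and 70.4 against 4.54 and 5.03 CPM (4.28, SE 0.33, adjusted p = 9.60e-06), and Hgf, which drives branching of epithelium, at 55.8 and 50.5 against 4.06 and 2.87 CPM (3.91, SE 0.49, adjusted p = 0.000234). Areg, a ligand of the EGF receptor that is needed for ductal growth, was lower at 9.34 and 18.5 against 142 and 130.2 CPM (-3.27, SE 0.54, adjusted p = 0.00144). The 6 higher members became 2 without CD11b+ replicate 1, and the 2 lower became 1 without each of the 4 compared libraries and 4 in a fit of these alone.

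Sensors of microbes were higher for 14 of 26 and lower for 2 (median 1.74), and the 6 largest differences among its called members were of Toll-like receptors. Tlr13, which detects bacterial ribosomal RNA, was at 502 and 387 CPM in ductal macrophages and 12.4 and 9.16 CPM in CD11b+ cells (5.34, SE 0.35, adjusted p = 3.83e-06). Tlr7, a sensor of single-stranded RNA, was at 355 and 339 against 10.9 and 5.74 CPM (5.33, SE 0.76, adjusted p = 0.000537), and Tlr1, a partner of TLR2 at the cell surface, at 129 and 77.4 against 4.06 and 2.87 CPM (4.85, SE 0.62, adjusted p = 0.000254). Tlr4 and its partner Ly96, which detect endotoxin, were not called, at 69.2 and 47.9 against 55 and 34.8 CPM (adjusted p = 0.391) and at 51.7 and 51.1 against 45.2 and 44.7 CPM (adjusted p = 0.768). The 14 became 9 without CD11b+ replicate 2, and the 2 lower members became 4 without either stromal library and 1 without either ductal library or CD11b+ replicate 1.

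Interferon-inducible genes were lower for 13 of 27 and higher for 3 (median -1.19). Ifitm3, which blocks virus entry, was at 97.7 and 166 against 1394 and 1857 CPM (-3.62, SE 0.35, adjusted p = 4.45e-05). Isg15, a ubiquitin-like modifier, was at 29.6 and 39.5 against 192 and 157 CPM (-2.34, SE 0.27, adjusted p = 0.000133), and Usp18, which removes it, at 11.2 and 6.81 against 39.2 and 42.9 CPM (-2.2, SE 0.29, adjusted p = 0.00032). The regulators Irf7 and Irf1 were not called, at 79 and 67.3 against 68.8 and 85.3 CPM and at 185 and 186 against 186 and 184 CPM. When a fold of at least 2 was tested 5 lower and 0 higher members were left, and the 3 higher became 1 without either CD11b+ library.

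Matrix genes split evenly, 9 of 28 higher and 9 lower. Mmp13, a collagenase, was at 437 and 573 CPM in ductal macrophages and 1.58 and 0.359 CPM in CD11b+ cells (8.76, SE 0.76, adjusted p = 2.06e-05), and the membrane-bound Mmp14, which activates other metalloproteinases, at 425 and 333 against 10.4 and 18.1 CPM (4.76, SE 0.42, adjusted p = 2.14e-05). Fn1 and Serpinb2, given above, and F13a1, given for the LYVE1 list, were among the lower members. Plaur, the receptor for urokinase, was at 1772 and 1693 against 2163 and 2334 CPM (-0.38, 95% interval -0.89 to 0.14).

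The promoters of Mmp13 and Mmp12 are shown because both metalloproteinase genes were higher and both stretches held an AP-1 match, the letters TGANTCA on either strand, in capitals; Mmp12 was chosen after its values were seen. Mmp12, macrophage elastase, was at 2457 and 2529 against 123 and 73.1 CPM (4.67, SE 0.5, adjusted p = 8.51e-05). The stretches are the 100 bases before the start, at chr9:7272414-7272513 for Mmp13 and chr9:7347274-7347373 for the RefSeq start of Mmp12 with the match, which is 1 of 2, both on the plus strand of GRCm38.p6.
Mmp13: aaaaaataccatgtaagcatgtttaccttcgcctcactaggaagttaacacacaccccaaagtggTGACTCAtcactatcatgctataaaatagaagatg
Mmp12: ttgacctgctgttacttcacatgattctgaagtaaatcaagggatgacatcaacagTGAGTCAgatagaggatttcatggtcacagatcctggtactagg
The match began 35 bases before the start in Mmp13 and 44 in Mmp12. In 250 bases the motif was found in 5.98% of all promoters, in 7.02% of those of higher genes (106 of 1510) and in 7.56% of those of lower genes (102 of 1349), as a description with no test.

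Adhesion genes were higher for 8 of 28 and lower for 7. Vcam1, a ligand of the integrin VLA-4, was at 3250.1 and 3439 against 12.5 and 16.2 CPM (7.88, SE 0.4, adjusted p = 3.14e-06). Itgb7, a chain of integrins that home to epithelium and gut, was lower at 2.73 and 3.78 against 303 and 265 CPM (-6.43, SE 0.44, adjusted p = 4.80e-06). The common leukocyte chain gene Itgb2 was not called, at 538 and 406 against 561 and 559 CPM (-0.25, adjusted p = 0.636).

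Genes of the actin skeleton and of cell movement were lower for 19 of 32 and higher for 2 (median -2.19). Lsp1, an actin-binding protein of leukocytes, was at 28.5 and 44.1 CPM in ductal macrophages and 2522 and 2499 CPM in CD11b+ cells (-6.11, SE 0.46, adjusted p = 9.09e-06). Crip1 was at 24.4 and 46 against 2195 and 2198 CPM (-5.96, SE 0.45, adjusted p = 9.31e-06) and S100a10, which with annexin A2 binds the membrane, at 14.6 and 24.6 against 1073 and 991 CPM (-5.71, SE 0.35, adjusted p = 3.24e-06). The actin gene Actb and the severing factor Cfl1 were not called, at 6263 and 6514 against 9469.5 and 13203 CPM (adjusted p = 0.0983) and at 909 and 1066 against 1599 and 1905 CPM (adjusted p = 0.0643). Without each compared library in turn, 18 members were lower, and the 2 higher became 0 without CD11b+ replicate 1 and 1 without any of the other 3, without either CD103+ library or stromal replicate 1 and with upper quartile normalization.

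Enzyme and receptor genes of eicosanoids were higher for 6 of 19 and lower for 7. The prostaglandin D synthase gene Hpgds was at 496 and 534 CPM in ductal macrophages and 2.13 and 1.62 CPM in CD11b+ cells (8.05, SE 0.56, adjusted p = 5.50e-06), and Hpgd, which inactivates prostaglandins, at 131 and 186 against 3.44 and 1.44 CPM (5.89, SE 0.5, adjusted p = 1.75e-05). Among leukotriene genes, Alox5ap, the partner of 5-lipoxygenase, was at 19.1 and 23.6 against 588 and 629.9 CPM (-4.83, SE 0.36, adjusted p = 8.56e-06), and Ltb4r1, the receptor for leukotriene B4, at 0.911 and 1.32 against 197 and 231 CPM (-7.55, SE 0.56, adjusted p = 8.83e-06). The 5-lipoxygenase gene Alox5 had 2 counts in ductal macrophages and 24.7 and 35.5 CPM in CD11b+ cells, a ratio of 134 (interval 36.9 to 1109). The cyclooxygenase gene Ptgs1 was not called, at 214 and 259.9 against 109 and 140.2 CPM.

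Iron and heme genes were higher for 7 of 17 and lower for 3. Slc40a1, ferroportin, the exporter of iron, was at 98.4 and 130.3 against 0.275 and 0.898 CPM (7.9, SE 0.49, adjusted p = 3.21e-06). Hebp1, a heme-binding protein, was at 31.4 and 30.1 against 0.138 and 0.718 CPM (6.48, SE 0.75, adjusted p = 0.000136), while the ferrireductase gene Steap3 was lower at 0.911 and 2.84 against 24.7 and 34.8 CPM (-3.95, SE 0.59, adjusted p = 0.00072). Hmox1, heme oxygenase, was not called, at 600.0 and 274 against 814 and 748 CPM (adjusted p = 0.18).

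Cell cycle genes were lower in ductal macrophages for 17 of 27 and higher for 0, with a median of -1.99. At an unadjusted p under 0.05 the number higher was 0, and DESeq2 called 0. Ube2c, which marks mitotic cyclins for degradation, was at 5.69 and 4.92 CPM in ductal macrophages and 153 and 149 CPM in CD11b+ cells (-4.84, SE 0.45, adjusted p = 3.19e-05). The mitotic cyclin gene Ccnb2 was at 6.61 and 18 against 99.5 and 92.8 CPM (-2.95, SE 0.46, adjusted p = 0.000917) and the kinase gene Aurkb at 6.83 and 9.84 against 53.1 and 71.8 CPM (-2.89, SE 0.29, adjusted p = 4.96e-05). The replication genes Mcm3, Mcm6 and Pcna were not called, with Mcm3 at 113 and 107 against 108 and 116 CPM. The 17 became 11 without either ductal library or CD11b+ replicate 2.

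Immediate early and heat shock genes, which respond to handling of cells as well as to stimulation, were lower for 12 of 21 and higher for 0 (median -0.99). Egr2 was at 11.6 and 16.3 against 129 and 84.9 CPM (-2.93, SE 0.33, adjusted p = 0.00011) and Ier3 at 31.2 and 56.2 against 353 and 365 CPM (-3.03, SE 0.37, adjusted p = 0.000203). The heat shock genes Hspa1a and Hspa1b, which are near-identical copies and so uncertain, were at 242 and 117 against 1383 and 628 CPM and at 242 and 141 against 2602 and 705 CPM. CD11b+ replicate 1 was the highest library in both, and without it the adjusted p-values were 0.0688 and 0.071, with 0.0707 and 0.0696 without ductal replicate 2. The 12 became 5 without CD11b+ replicate 1 or ductal replicate 2 and 6 without ductal replicate 1, and Dusp1, Junb and Nfkbia were not called.

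Mitochondrially encoded genes took 0.631% and 0.891% of counts in ductal macrophages and 3.22% and 1.88% in CD11b+ cells. Of the 13 tested, 5 were lower and 0 higher, but the count was 0 without ductal replicate 1 or CD11b+ replicate 1, 1 without ductal replicate 2, 8 without either CD103- library, 9 with DESeq2, 10 without a filter on low counts and 11 in a fit of the 4 libraries alone. ND1, a subunit of complex I, was at 834 and 1441 against 5463 and 2163 CPM (adjusted p = 0.0355), with CD11b+ replicate 1 far above the other 3 libraries. Glycolysis genes were lower for 5 of 16 and higher for 0. Pfkp, a phosphofructokinase, was at 23.9 and 28.4 against 383 and 323 CPM (-3.75, SE 0.3, adjusted p = 1.29e-05) and Tpi1 at 105 and 107 against 361 and 406 CPM (-1.86, SE 0.21, adjusted p = 0.000131), and the count was 3 without either ductal library.

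Markers of other cell types were measured beside these groups. Luminal epithelial markers were at a summed 174 and 364 CPM in ductal macrophages and 583 and 1375 CPM in CD11b+ cells, between 368 and 1695 CPM in the other 6 libraries, and 4 of the 11 were called lower, while the milk protein genes Csn2 and Wap were at 0 in all 4 compared libraries. Cldn4, a tight junction gene, was at 11.8 and 20 against 54.1 and 132 CPM (adjusted p = 0.0184), and was lost without ductal replicate 1 (0.159), ductal replicate 2 (0.0639) and CD11b+ replicate 2 (0.157). The B cell markers summed to 342 and 348 CPM against 87.5 and 78.6 CPM, through Ighm and Cd79b, with Pax5 at 0 in both. Fibroblast markers summed to 415 and 1213 CPM against 289 and 520 CPM, with none of the 6 called. Neutrophil markers summed to 0 and 0 against 23 and 30.5 CPM, nearly all from Retnlg, which resembles Retnla in sequence. S100a8, S100a9, Ly6g and Camp were at 0 in all 4 compared libraries. The part of these cells in the results above was not tested.

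Small differences were bounded by their intervals. For 2525 genes the 95% interval of the log2 fold change lay within ±1, that is, within a fold of 2 in either direction. The 10 of highest mean CPM among them were Dusp1, Cdc42, Cd83, Sdcbp, Cxcl2, Plaur, Junb, Plin2, Cytip and Fcer1g. Dusp1, a phosphatase that ends MAP kinase signals, was at 4467 and 4103 CPM in ductal macrophages and 3964 and 3813 CPM in CD11b+ cells (0.14, interval -0.58 to 0.86). Sdcbp, syntenin, a protein of exosome formation, was at 3125 and 2338 against 3055 and 2249 CPM (0.04, interval -0.73 to 0.82), and Cytip, which regulates adhesion of maturing dendritic cells, at 1145 and 1668 against 1989 and 1128 CPM (-0.15, interval -0.95 to 0.65). The libraries of the populations overlapped for Sdcbp and Cytip, while both ductal libraries lay above both CD11b+ libraries for Dusp1, by less than the spread of the model.

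The transcripts of highest CPM, on a scale not corrected for gene length, were partly shared. Both populations had Cd74, H2-Ab1, H2-Aa, H2-Eb1, Lyz2 and Lars2 in common among their 10 highest. Apoe, Fth1, Ctsb and Ctss completed the 10 of ductal macrophages, and Retnla, COX1, Actb and Ccl6 those of CD11b+ cells. Fth1, the heavy chain of ferritin, was at 13083 and 12506 against 4569.7 and 3783 CPM (1.62, SE 0.31, adjusted p = 0.00355), and Ctsb, cathepsin B, at 12556 and 9651 against 1687 and 1624 CPM (2.75, SE 0.37, adjusted p = 0.000358). Gapdh, read here after its values were seen, was at only 7.74 and 6.62 against 11.1 and 7.18 CPM, a gene with many close copies in the genome; how reads of such genes were assigned is not stated in the labels.

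A second comparison of macrophages with dendritic cells, which shared no library with the first, showed where the differences were of another direction. Stromal macrophages against the mean of both CD11b- dendritic cell populations gave 3286 higher genes (21.0%) and 3177 lower (20.3%), 41.2% in either direction. Of the 1862 genes higher in ductal macrophages over CD11b+ cells, 542 were also higher in the second comparison, 29.1% of the first list and 16.5% of the second, and 555 were lower in it. Of the 1788 lower genes, 510 were also lower, 28.5% and 16.1% of the lists, and 498 were higher. Across the 15681 genes the fold changes had a Pearson correlation of 0.07 and a Spearman correlation of 0.02, given as a description, since genes are not independent and the comparisons share the fit and its normalization. The difference between the comparisons was itself tested, and 2474 genes (15.8%) were higher and 2508 (16.0%) lower in the first.

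Macrophage-defining genes were called in 1 direction in both comparisons. Ms4a7 had a log2 fold change of 10.53 in the first and 8.67 in the second, and the difference was not called (adjusted p = 0.0713). Apoe was at 8.17 and 6.18, with a difference of 1.99 (SE 0.67, adjusted p = 0.0412). Of the 14 macrophage-defining genes, 13 were higher and 0 lower in the second comparison, against 11 and 0 in the first, and 1 differed upward and 7 downward between them.

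Retnla, Fcrls and F13a1 were among the genes of largest difference between the comparisons on the lower side. Retnla was at 6.61 and 14.9 CPM in ductal macrophages, 18695 and 24022 CPM in CD11b+ cells, a mean of 9930.4 ± 3473 CPM (SD, n = 2) in stromal macrophages and 13.2 ± 3.22 and 7.6 ± 3.9 CPM in CD103+ and CD103- cells, with a difference of -20.9 (SE 0.96, adjusted p = 2.25e-07). Fcrls, at 479 ± 88.6 CPM in stromal macrophages, differed by -18.06 (SE 1.24, adjusted p = 3.08e-06), and F13a1, at 5507 ± 1062 CPM, by -20.22 (SE 1.09, adjusted p = 6.96e-07). All 20 genes of the LYVE1+ macrophage list were higher in the second comparison, against 3 in the first, and 19 of them differed.

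On the higher side were Dnase1l3 and H2-M2. Dnase1l3 was at a mean of 205 ± 78.7 CPM in CD103+ cells and 64.3 ± 1.66 CPM in CD103- cells, and at 2.89 ± 0.906 CPM in stromal macrophages, with a difference of 15.43 (SE 0.83, adjusted p = 6.96e-07). H2-M2 differed by 14.39 (SE 1.15, adjusted p = 8.22e-06). Tlr12 and Il12b, a subunit of interleukins 12 and 23, had 0 counts in stromal macrophages, so that no difference is given for them; Il12b was at 32.6 and 61.7 CPM in ductal macrophages, 11.3 and 3.59 CPM in CD11b+ cells and a mean of 303 ± 129 CPM in CD103+ cells. Of the 18 MHC class II pathway genes, 15 differed upward and 0 downward. In the second comparison by itself 1 of them was higher and 12 were lower, against 6 and 2 in the first. Of the 27 interferon genes, 0 differed upward and 18 downward. For these the second comparison gave 20 higher and 1 lower, against 3 and 13 in the first.

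In several other lists the side with more calls was not the same in both comparisons. Of the cDC1 genes 0 were higher and 11 lower in the second, against 5 and 1 in the first, and of the MHC class I genes 0 and 11, against 4 and 1. Growth factor receptors were at 6 and 9 against 13 and 2, costimulatory genes at 3 and 9 against 7 and 4, chemokines at 15 and 5 against 4 and 7, and adhesion genes at 4 and 19 against 8 and 7. The lists of migration receptors, of cholesterol and lipid, of eicosanoids and of the CD11b+ dendritic cell also had more calls on the other side. Some of these lists were near balance in the first comparison. Migration receptors were at 4 higher and 3 lower there, and at 3 and 3 with RLE size factors. Eicosanoids were at 6 and 7 and adhesion genes at 8 and 7, so for these 3 lists the side with more calls is uncertain. Of the 21 immediate early and heat shock genes, 14 were higher in stromal macrophages over CD11b- cells and 1 lower, against 0 and 12 in the first comparison. All 13 mitochondrially encoded genes were higher in the second comparison, and these took 24.8% and 23.1% of counts in stromal macrophages against at most 6.29% in the other libraries. Without those genes, the second comparison gave 3176 higher and 3241 lower genes. Cell cycle genes were lower in both, 25 of 27 in the second and 17 in the first. Of the 58 lysosome genes, 25 were higher and 8 lower in the second comparison, and 26 differed upward and 6 downward.

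**Figure D5:**
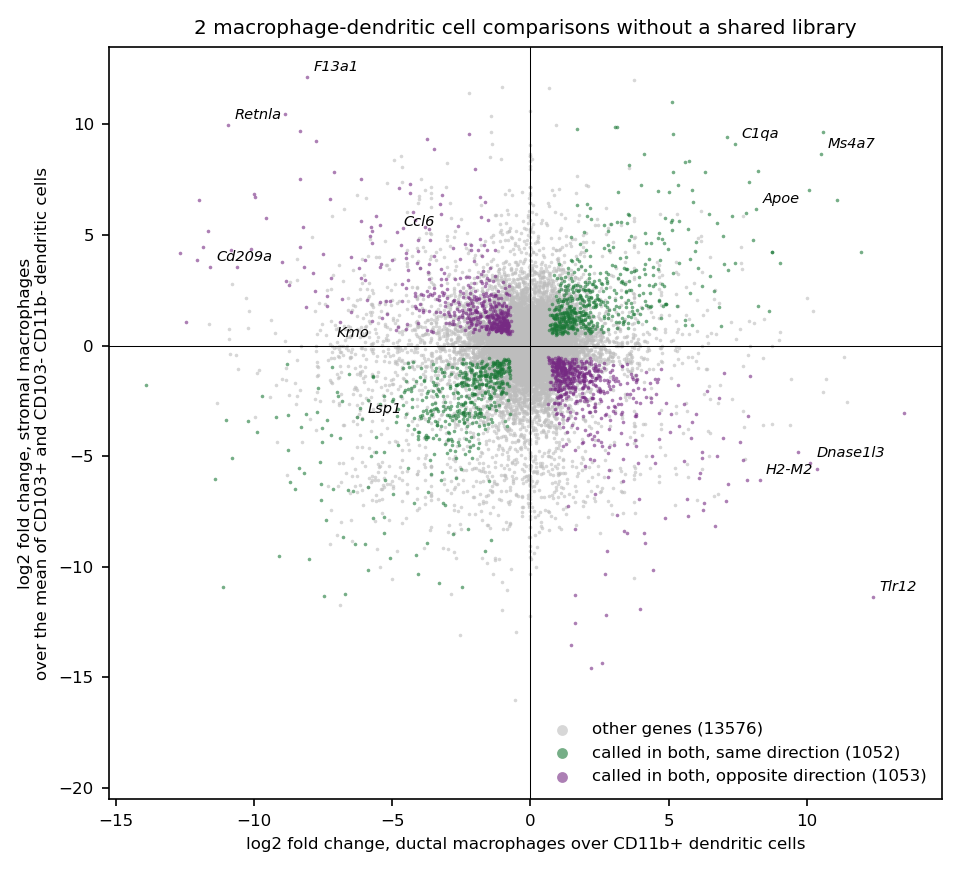
Log2 fold change of each tested gene in ductal macrophages over CD11b+ dendritic cells (x axis) and in stromal macrophages over the mean of the CD103+ and CD103- CD11b- dendritic cells (y axis). Green points are genes called in both in the same direction (542 higher and 510 lower), purple points genes called in both in opposite directions (555 and 498), and grey points all others; values far from 0 include genes without counts in a population, whose fitted size depends on the model.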

How the data were processed

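RNA of freshly sorted cells was sequenced as 80-base pairs on a NextSeq 500 from TruSeq libraries, per the labels' protocols. The authors deposited 1 table of whole-number read counts per gene for the 10 libraries, made with featureCounts on mm10, per the submitters' processing notes. Which aligner, annotation, strand setting and multi-mapping rule were used was not given in the sources used here, so overlapping, antisense and near-identical genes are uncertain.

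Gene identifiers were paired with names and coordinates of RefSeq's GRCm38.p6 for 25275 genes, with another 17 names from GENCODE. The model was edgeR 4.0.16 in R 4.3.3, with glmQLFit and glmQLFTest, TMM normalization and filterByExpr (minimum count 10, minimum total 15). All 10 libraries entered 1 fit with a term per population and 5 residual degrees of freedom, and p-values were adjusted by Benjamini and Hochberg over the 15681 tested genes. Standard errors were derived from the log2 fold change and the F statistic. Counting intervals of low counts are at 95%, and they and the 3-count floor cover counting error only.

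The populations and gene lists were chosen with earlier results of these data known. Genes were named by rule: the sorting markers; up to 15 per direction of largest change, without overlap and at 30 CPM or more; up to 6 called and 3 not called genes per list; the 10 of highest CPM per population; 10 with an interval within ±1; 10 per direction of largest difference between the comparisons; and all members of the macrophage-defining and MHC class II lists; some of these genes are not reported here. Zbtb46, Mmp12, Gapdh, Lyve1, Cd209b, Glb1, Naglu, Sgsh, Lamp1 and Mcoln1 were chosen after their values were seen. Alternatives were other normalizations and filters, DESeq2 1.42.0, a replicate block, a test against a fold of 2, removal of mitochondrial genes, the 4 libraries alone and leaving out each library.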

Additional observations from a re-analysis of the deposited data

Results flagged for a closer look

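Of the 1862 genes higher in ductal macrophages over CD11b+ dendritic cells, 555 (29.8%) were lower in the second comparison. That comparison set stromal macrophages against both CD11b- dendritic cell populations, and 20.3% of all tested genes were lower in it. Of the 1788 genes lower in ductal macrophages, 498 (27.9%) were higher in the second comparison, against 21.0% of all tested genes. The shares called in the same direction were similar, at 29.1% and 28.5%. The difference between the comparisons was called in each gene of opposite direction. Because these genes were picked for opposite calls, that test was all but certain to call them and adds no separate support. No library was shared by the comparisons. Mitochondrially encoded genes took 24.8% and 23.1% of counts in stromal macrophages, and the part of this in the result was not tested.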

How the results depend on the processing

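Higher and lower calls were near balance in each comparison, and which were more numerous changed with the setting: without a filter on low counts the first gave 1904 higher and 1935 lower genes, and with DESeq2 2154 and 2183. With RLE size factors the second gave 3112 and 3371 and the difference 2616 and 2433. Tested against a fold of 2 (edgeR's glmTreat), ductal macrophages over CD11b+ dendritic cells gave 741 higher and 706 lower genes, stromal macrophages over CD11b- cells 1330 and 1446, and the difference between the comparisons 1405 and 1345. Leaving out each of the 10 libraries in turn gave 916 to 2093 higher and 794 to 2136 lower genes in the first comparison, 2257 to 3121 and 2546 to 2983 in the second, and 1671 to 2704 and 1618 to 2521 in the difference. A population left with 1 library was assumed to vary like the others. The difference had 1618 lower genes without ductal replicate 1. Other normalizations, filters, DESeq2 and removal of mitochondrial genes stayed within 1.5 times of the main counts in all 3. The 4 libraries alone, with 2 residual degrees of freedom, were run for the first comparison only and gave 2446 and 2443. Upper quartile normalization moved the median log2 fold change of all genes to -0.13 and gave 1741 higher and 2065 lower genes. With the replicate number as a replicate block, 1693 and 1600 genes were called in the first comparison and 3025 and 2953 in the second; of the genes described, Cd74 (adjusted p = 0.0605), H2-DMa (0.0745) and ND1 (0.0555) lost their calls, and Hmox1 gained one (0.0482). Tested against a fold of 2, growth factor receptors had 8 higher members, the wider macrophage list 13 and iron genes 4. Same-numbered libraries correlated at -0.18 to 0.18 in their deviations, so the numbers were not taken as a pairing. The ductal libraries and CD11b+ replicate 2 had the lowest totals, and 2 libraries per population limit all calls. Of the 219 named genes that were called, 169 kept their call without each of the 4 compared libraries.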
